A study of Mus musculus with 12 samples.

Results

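The 34 genes described here encode the transporters and enzymes that take glucose into the cell and through glycolysis, lactate formation and the pentose phosphate pathway. They were chosen by name. A gene was measured by the probe set (a set of short probes on the array) whose platform annotation gives its symbol alone, and where several did, by the one with the highest mean level over all 12 arrays. Of the 34 genes, 30 had such a probe set outside the array controls and 28 passed a filter on low values. Over the whole array 12393 genes were named in this way and 7506 passed. Eno2 and Slc16a3 did not pass, with signals of at most 4.74 and 11.4. Gpi1, Eno1 and G6pdx had no probe set of their own symbol in the annotation used here, and Gapdh was read only by array control probe sets and by a probe set with several symbols, so these 4 genes were not tested.

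The cells were BW5147, an established mouse line from a thymic T cell lymphoma, and the labels name no other line. All were cultured in the same supplemented serum medium and collected 8 h after treatment. The 6 groups were unstimulated cells, cells treated with a single agent, and cells treated with Dex plus 1 of the 2 other agents. The agents were Dex (dexamethasone, a glucocorticoid drug) at 100 ng/ml, IL-9 (interleukin-9, a T cell growth factor) at 100 U/ml and CCL1 (a chemokine) at 100 U/ml. Each group held 2 arrays of total RNA, numbered 1 and 2 in the labels, with nothing there on separate cultures. The p-values therefore measure array-to-array spread, and that spread may be technical. Levels are MAS5 signals, scaled by the authors to the same trimmed mean in every array, and the number of arrays limits the precision. Differences are on the log2(signal + 16) scale, which understates the change of low signals. Tests were made with limma on all 13575 probe sets that passed the filter, and a gene was called where its Benjamini-Hochberg adjusted p was under 0.05. The array labelled CCL1 2 came from a different array design and did not enter the tests, so the group given CCL1 alone had n = 1 there, with its spread taken from the other groups. It is included wherever signals are given.

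Glycolysis splits glucose into pyruvate, which proliferating T cells and lymphomas largely reduce to lactate and export. The pentose phosphate pathway branches off after the first step: its oxidative arm yields NADPH, and its non-oxidative arm interconverts sugar phosphates and yields ribose for nucleotides. In T cells, growth factor cytokines are known to promote glucose uptake and glycolysis, and glucocorticoids to restrain them.

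Start-site sequences are shown for the 4 genes whose signals the results return to most often: Tktl1 and Slc2a1 for the cytokines, Ldha and Pgd for the replicate numbers. Each is the 250 bases before the annotated transcript start, 5′ to 3′ on the strand of the gene, from RefSeq on the mouse assembly GRCm38.p6. The windows are chrX:74177009-74177258 for Tktl1, chr4:119108495-119108744 for Slc2a1 and chr7:46845554-46845803 for Ldha, all on the plus strand, and chr4:149166706-149166955 for Pgd on the minus strand, each just upstream of the first exon of an annotated transcript. Capitals mark matches, on either strand, to CACGTG (the E-box read by Myc and Mlx factors), ACGTG (the core of the hypoxia response element, which each CACGTG also contains), GGGCGG (the GC box read by Sp1) and TGACNNNGC (the core of the antioxidant response element).
Tktl1: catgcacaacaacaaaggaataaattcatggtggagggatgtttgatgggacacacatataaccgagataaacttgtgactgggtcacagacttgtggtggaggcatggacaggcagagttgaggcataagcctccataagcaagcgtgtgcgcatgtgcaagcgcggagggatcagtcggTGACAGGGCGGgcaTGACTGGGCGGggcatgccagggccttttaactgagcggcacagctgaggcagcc
Slc2a1: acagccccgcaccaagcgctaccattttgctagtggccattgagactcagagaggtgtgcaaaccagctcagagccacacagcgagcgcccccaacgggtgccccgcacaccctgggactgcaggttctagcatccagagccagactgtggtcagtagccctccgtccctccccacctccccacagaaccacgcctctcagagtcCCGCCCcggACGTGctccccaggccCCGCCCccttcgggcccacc
Ldha: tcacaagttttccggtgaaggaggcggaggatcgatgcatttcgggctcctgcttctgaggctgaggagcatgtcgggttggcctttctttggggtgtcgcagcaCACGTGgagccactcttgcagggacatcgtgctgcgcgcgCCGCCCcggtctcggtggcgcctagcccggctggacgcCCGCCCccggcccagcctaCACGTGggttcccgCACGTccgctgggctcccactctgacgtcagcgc
Pgd: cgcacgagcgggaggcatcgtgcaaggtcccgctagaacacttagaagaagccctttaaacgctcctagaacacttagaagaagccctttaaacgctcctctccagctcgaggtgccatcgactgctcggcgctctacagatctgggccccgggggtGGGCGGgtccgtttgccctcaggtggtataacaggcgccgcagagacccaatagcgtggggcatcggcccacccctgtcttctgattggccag
The Tktl1 window held TGACNNNGC at -69 and -55 and GGGCGG at -64 and -50 from the start, each pair overlapping. The Slc2a1 window held ACGTG at -36 and GGGCGG at -45 and -20. The Ldha window held CACGTG at -145 and -48, a further ACGTG at -34 and GGGCGG at -105 and -67. The Pgd window held GGGCGG at -93. Over windows of 300 bases, reaching 50 bases past the start, ACGTG was in 19 of 47 windows of 33 member genes (40.43%, against 19.62% of 32851 windows of all genes) and GGGCGG in 30 (63.83%, against 35.66%). CACGTG was in 4 (8.51%, against 7.15%) and TGACNNNGC in 6 (12.77%, against 12.39%). Base composition was not matched, and the 4 printed windows had 54.8% to 67.2% G and C against a median of 52.4% over all windows. A match is a description of the sequence and shows neither binding nor a cause.

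Some facts of the whole series bear on these genes. T lymphoid markers were present, with 10 of 16 measured passing the filter (Thy1, Cd3g, Cd3e and Lat among them), while Cd4, Cd8a, Cd2 and Cd247 were near 0. Of the markers of other cell types, 0 of 5 B cell, 0 of 2 erythroid, 1 of 4 epithelial (Krt8), 2 of 4 fibroblast (Pdgfrb, Col1a2) and 4 of 7 myeloid genes passed, the myeloid ones with summed signals of 38.8 to 61.2. Pdgfrb had signals of 181 to 391, while the fibroblast collagen genes Col1a1, Col1a2 and Col3a1 had means of 2.27, 7.47 and 2.63. The arrays labelled without Dex and numbered 1 went against their label. The 12 tested glucocorticoid receptor targets had a mean level, centred on each gene's mean, of 0.320, 0.334 and 0.169 in the arrays labelled without Dex and numbered 1 (unstimulated, IL-9 and CCL1), against -0.715, -0.682 and -0.762 in those numbered 2 and 0.081 to 0.301 in the 6 Dex arrays. The member differences were therefore also computed without these 3 arrays and with the array CCL1 2 added, an alternative chosen after the data were seen. These values are printed beside the larger differences that moved by more than 1.5 times, and beside some that did not. In this alternative each group without Dex held 1 array, numbered 2, and CCL1 2 stood in for CCL1 1. The 100 probe sets of the highest mean signal had a centred mean from -0.334 in unstimulated 2 to 0.485 in Dex+CCL1 2. The control probe sets for Gapdh, the glycolytic enzyme often used as a loading control, followed the same order at its ends. The 3′ Gapdh control had its lowest signal, 2905, in unstimulated 2 and its highest, 4898, in Dex+CCL1 2, with a ratio of 3′ to 5′ signal of 0.682 to 0.781.

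**Figure D1:**
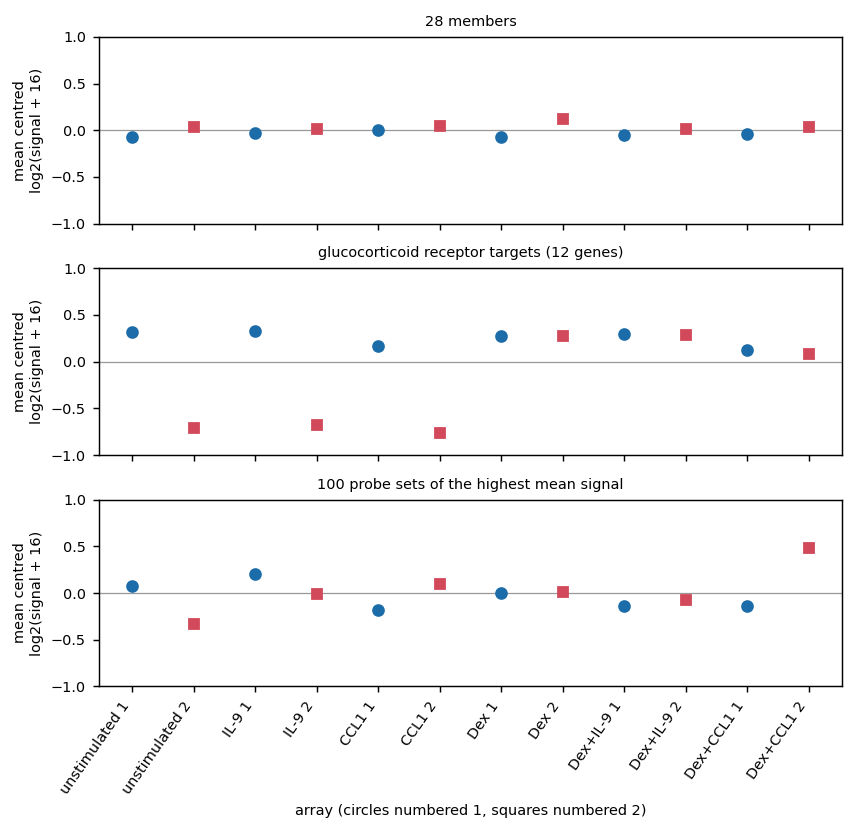
Mean of log2(signal + 16), centred on each gene's mean, in each of 12 arrays, for the 28 members, 12 glucocorticoid receptor targets and the 100 probe sets of the highest mean signal; circles are arrays numbered 1 and squares numbered 2. The members lie between -0.072 and 0.117, while the receptor targets lie between -0.762 and -0.682 in the 3 arrays labelled without Dex and numbered 2.

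As a group the members varied little. Their mean centred level lay between -0.072 in Dex 1 and 0.12 in Dex 2, and Dex 2 was also highest after quantile normalization (0.12) and median centring (0.16), where unstimulated 1 was lowest (-0.075 and -0.13). The median standard deviation of a member over the 12 arrays was 0.17, against 0.21 over all 13575 probe sets, and 11 of 28 members lay above that median. The probe sets were not matched to the members on signal level, and the part of signal level in this difference was not tested. Tktl1, a transketolase-like protein, varied most (SD 0.52, signals of 19.1 to 83.7), followed by the glucose transporters Slc2a3 (SD 0.30) and Slc2a1 (SD 0.29). Pdha1, the catalytic alpha subunit of pyruvate dehydrogenase, varied least (SD 0.077, signals of 574 to 709). The phosphofructokinase Pfkp was next (SD 0.095, signals of 403 to 501).

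**Figure D2:**
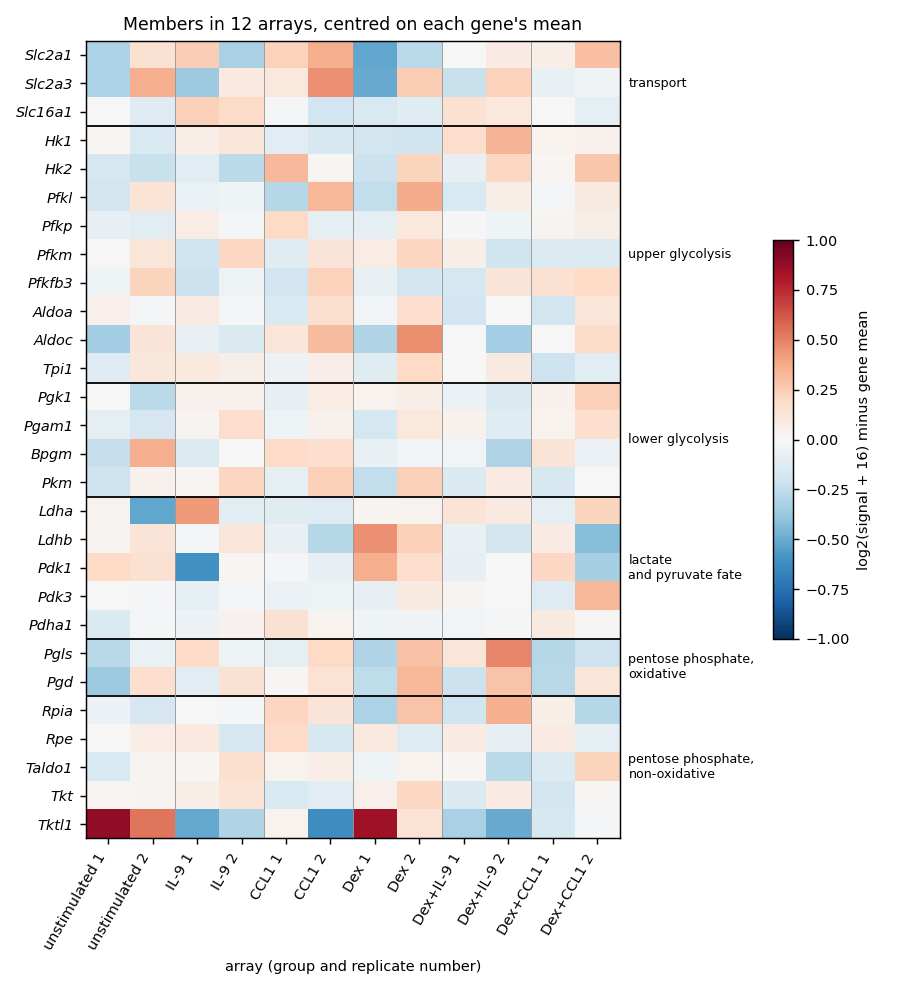
Level of 28 members (rows, grouped by role) in 12 arrays (columns) as log2(signal + 16) minus each gene's mean, from -1 (blue) to 1 (red). Most cells are pale; Tktl1 is red in the unstimulated and Dex arrays, and Slc2a1, Slc2a3, Pgls and Pgd are blue in Dex 1 and unstimulated 1.

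IL-9 and CCL1 were each compared with no cytokine, without Dex, within Dex and averaged over both. The largest difference in all 6 comparisons was a lower signal of Tktl1, and it did not pass the test. With IL-9, the hexokinase Hk1 and the lactate transporter Slc16a1 were higher in every array than in the arrays without cytokine, by fitted averages of 0.30 and 0.27 that did not pass the test. The glucose transporter Slc2a1 had its highest group mean, 402 ± 28.6 (SD, n = 2), with CCL1, and the lactate dehydrogenase Ldhb had its lowest signal, 102, with Dex and CCL1. Both cytokines share the same control arrays, so the 2 sets of differences are not independent.

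By limma, 0 of 28 members were called in any of these 6 comparisons. For IL-9, 0.0221% of all probe sets were called without Dex, 0.0221% within Dex and 0.0958% on average. For CCL1 these shares were 0%, 0.00737% and 0.00737%. At an unadjusted p under 0.05 there were 1, 3 and 4 members for IL-9, against 4.89%, 5.7% and 8.57% of all probe sets, and 2, 3 and 4 for CCL1, against 3.29%, 6.52% and 5.6%. The median difference of the members was 0.011 for IL-9 averaged over Dex conditions, against -0.012 over all probe sets, with 15 of 28 above 0. For CCL1 it was 0.070 against -0.017, with 17 of 28 above 0. The 95% intervals lay within 1 log2 of 0 for 27 members with IL-9 (98.0% of all probe sets) and for 27 with CCL1 (97.3%). They lay within 0.5 for 20 members with IL-9 and 19 with CCL1, and that share over all probe sets was not computed. Without the 3 arrays named above, 0 members were called in each of the 6 comparisons.

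**Figure D3:**
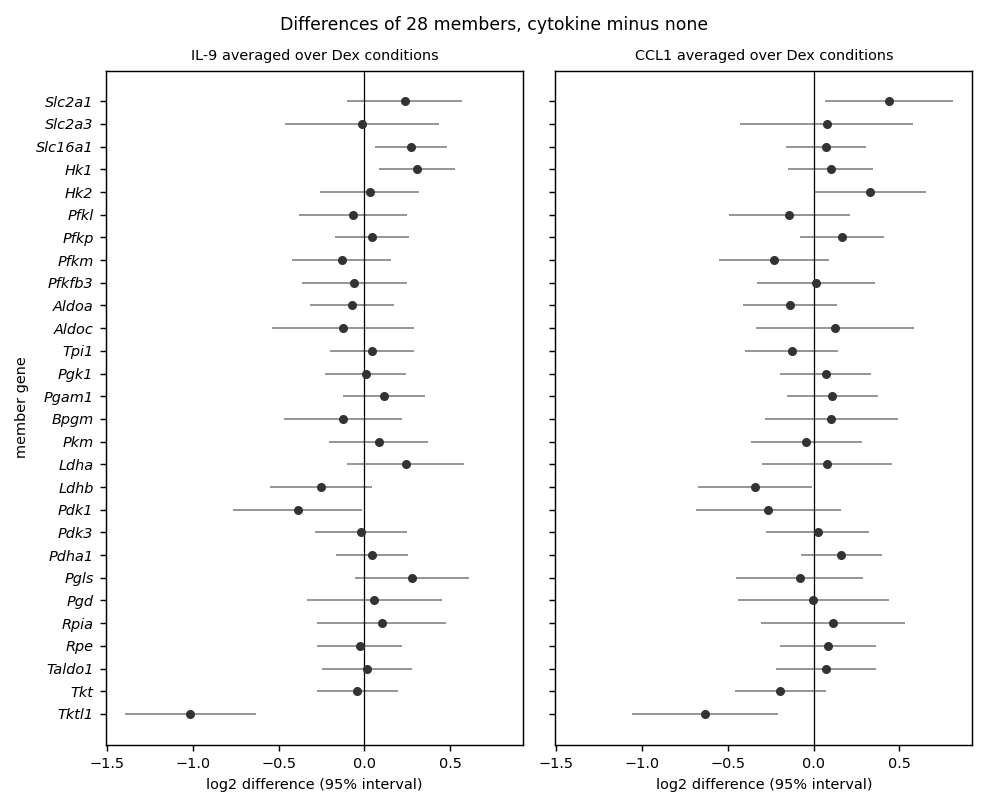
Log2 difference (points) with its 95% interval (lines) of 28 members for IL-9 and for CCL1 against no cytokine, averaged over Dex conditions, 11 arrays. Tktl1 stands apart at -1.01 with IL-9 and -0.63 with CCL1, and the other members lie between -0.39 and 0.44.

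Transport was measured by 3 members that passed the filter. Signals of Slc2a1 (probe set 1434773_a_at), the widely expressed glucose transporter GLUT1, were 259 and 362 in unstimulated cells (arrays 1 and 2, in that order throughout), 386 and 255 with IL-9, and 382 and 422 with CCL1. Under Dex, Slc2a1 read 221 and 265, with Dex and IL-9 323 and 343, and with Dex and CCL1 337 and 403. All 4 CCL1 arrays lay above both Dex arrays and unstimulated 1, and they overlapped with unstimulated 2. The CCL1 difference was 0.58 within Dex (SE 0.22, 95% interval 0.10 to 1.05, adjusted p = 0.738) and 0.44 on average (SE 0.17, interval 0.065 to 0.82, adjusted p = 0.849). For 2 further Slc2a1 probe sets the average was 0.36 and 0.62. With IL-9 it was 0.24. Without the 3 arrays named above the CCL1 average was 0.39 (adjusted p = 0.910) and the IL-9 average -0.022.

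Slc16a1 (MCT1), which carries lactate across the membrane, had signals of 1407 and 1279 in unstimulated cells, 1659 and 1607 with IL-9, and 1394 and 1226 with CCL1. Slc16a1 signals with Dex were 1262 and 1286, with Dex and IL-9 1555 and 1513, and with Dex and CCL1 1395 and 1314. The 4 IL-9 arrays were above the 8 others. The IL-9 average was 0.27 (SE 0.096, interval 0.063 to 0.48, adjusted p = 0.482), and it was 0.30 without the 3 arrays named above.

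Slc2a3 (GLUT3), a high-affinity glucose transporter, followed the replicate number more than the cytokine. Its signals were 125 and 210 in unstimulated cells, 121 and 172 with IL-9, and 173 and 226 with CCL1. Under Dex, Slc2a3 read 108 and 194, with Dex and IL-9 135 and 190, and with Dex and CCL1 151 and 156. In each of the 6 groups the array numbered 2 was the higher, and the cytokine averages were -0.014 (IL-9) and 0.075 (CCL1).

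**Figure D4:**
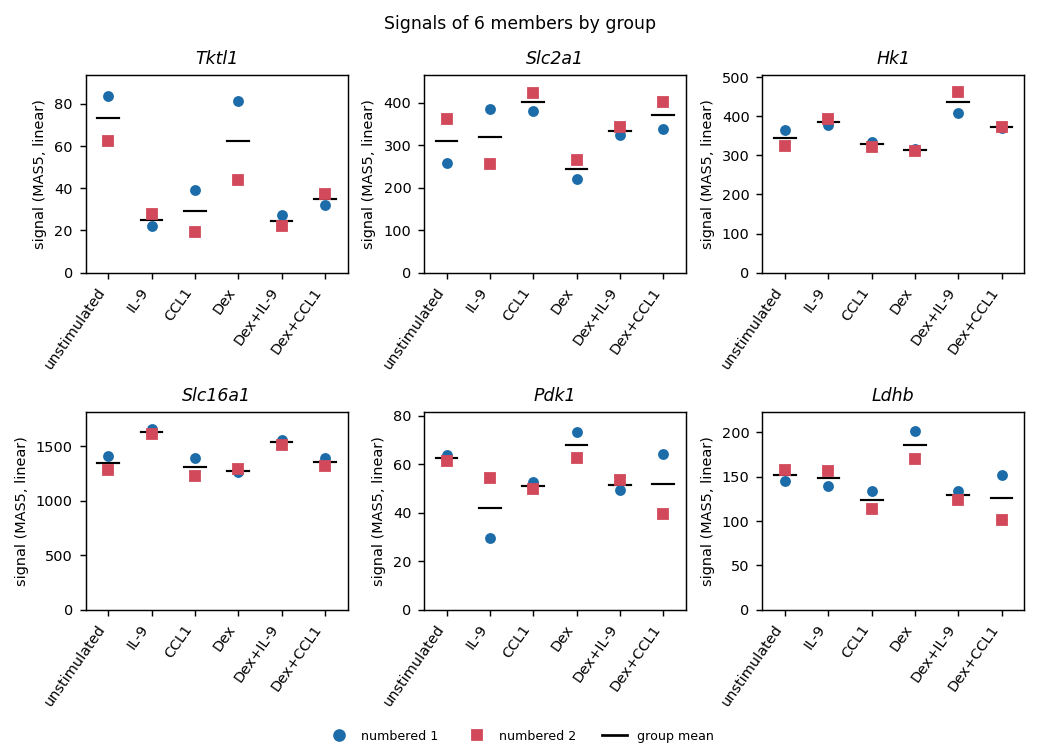
MAS5 signals (linear axis from 0) of Tktl1, Slc2a1, Hk1, Slc16a1, Pdk1 and Ldhb in the 6 groups; circles are arrays numbered 1, squares numbered 2 and bars the group mean of 2 arrays. Tktl1 is above 40 in the 4 arrays without cytokine and below 40 in the 8 with one, and the 4 IL-9 arrays of Slc16a1 are the highest.

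Upper glycolysis, from hexokinase to triose phosphate isomerase, held 9 tested members. Hk1 (probe set 1437974_a_at), a hexokinase that phosphorylates glucose on entry, had signals of 366 and 323 in unstimulated cells, 378 and 393 with IL-9, and 335 and 321 with CCL1. Hk1 signals with Dex were 315 and 312, with Dex and IL-9 409 and 462, and with Dex and CCL1 371 and 373. The 4 IL-9 arrays were above the 4 without cytokine and above the 4 with CCL1. The IL-9 difference was 0.45 within Dex (SE 0.14, interval 0.14 to 0.76, adjusted p = 0.838) and 0.30 on average (SE 0.10, interval 0.083 to 0.53, adjusted p = 0.448). A second Hk1 probe set, 1420901_a_at, gave 0.30 on average and 0.19 within Dex. Its highest signal, 304, was in Dex 2, so its IL-9 arrays were not all above those without cytokine. The main probe set gave an average of 0.36 without the 3 arrays named above.

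Hk2, the inducible hexokinase, had signals of 205 and 198 in unstimulated cells, 214 and 191 with IL-9, and 295 and 237 with CCL1. Under Dex, Hk2 read 199 and 274, with Dex and IL-9 219 and 271, and with Dex and CCL1 237 and 286. IL-9 2, unstimulated 2 and Dex 1 were lowest and CCL1 1 was highest, and the groups overlapped. Its CCL1 difference was 0.52 without Dex (SE 0.23, interval 0.016 to 1.02, adjusted p = 1.00, median of all probe sets -0.031) and 0.33 on average (SE 0.15, adjusted p = 0.885). Without the 3 arrays named above, and so with CCL1 2 in place of CCL1 1, these were 0.24 and 0.19.

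Aldoc, a minor aldolase, had signals of 33.0 and 52.3 in unstimulated cells, 43.4 and 40.4 with IL-9, and 51.8 and 61.6 with CCL1. Aldoc signals with Dex were 34.6 and 70.0, with Dex and IL-9 46.1 and 33.4, and with Dex and CCL1 46.7 and 55.1. Its 4 IL-9 arrays were below the 4 with CCL1 and overlapped with those without cytokine. The averages were -0.13 for IL-9 and 0.12 for CCL1. The main aldolase Aldoa, with signals of 1668 to 2146, had averages of -0.073 and -0.14.

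The 3 phosphofructokinase genes, which encode the committing step of glycolysis, had averages of -0.068 (Pfkl), 0.044 (Pfkp) and -0.13 (Pfkm) with IL-9 and of -0.14, 0.16 and -0.23 with CCL1, where Pfkp was at 0.025 and Pfkm at -0.13 without the 3 arrays named above. Pfkfb3, which makes the activator of phosphofructokinase, had low signals of 9.02 to 18.1, and Tpi1, triose phosphate isomerase, had 1011 to 1341. Pfkfb3 had the largest member difference in the CCL1 by Dex interaction. Its signals were 12.2 and 18.0 in unstimulated cells, 9.02 and 12.1 with IL-9, and 9.52 and 18.1 with CCL1. Under Dex, Pfkfb3 read 11.6 and 9.62, with Dex and IL-9 9.73 and 15.8, and with Dex and CCL1 16.4 and 17.5. The groups overlapped, CCL1 1 entered the test alone, and the interaction was 0.59 (SE 0.31, interval -0.10 to 1.27, adjusted p = 0.997). It was 0.30 without the 3 arrays named above, 0.018 for another Pfkfb3 probe set, and 0.22 to 1.22 over pseudocounts of 64 and 1.

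Lower glycolysis, from phosphoglycerate kinase to pyruvate kinase, held 4 tested members, whose cytokine averages lay between -0.12 and 0.11. Bpgm, which makes 2,3-bisphosphoglycerate, had the widest range of group means. Its signals were 41.7 and 71.2 in unstimulated cells, 45.6 and 51.8 with IL-9, and 61.1 and 60.2 with CCL1. Bpgm signals with Dex were 48.4 and 50.3, with Dex and IL-9 50.4 and 38.9, and with Dex and CCL1 58.1 and 49.1. The unstimulated arrays spanned nearly the whole range, and every group overlapped with them.

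Pgk1, the first ATP-yielding enzyme of the pathway, had signals of 2842 and 2344 in unstimulated cells, 2915 and 2919 with IL-9, and 2675 and 2976 with CCL1. Under Dex, Pgk1 read 2899 and 2968, with Dex and IL-9 2708 and 2552, and with Dex and CCL1 2915 and 3335. Unstimulated 2 was lowest and Dex+CCL1 2 highest, the same arrays that were lowest and highest in Gapdh control signal and in the 100 brightest probe sets. The part of that array difference in the Pgk1 signal was not tested. A further Pgk1 probe set, 1439435_x_at, ranged from 509 in unstimulated 1 to 1754 in unstimulated 2 and went against the main one. The suffixes _x_at and _s_at mark probe sets whose probes can match more than 1 transcript. Pgam1, phosphoglycerate mutase, had averages of 0.11 with each cytokine, and Pkm, pyruvate kinase, of 0.084 with IL-9 and -0.043 with CCL1.

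The members that set the fate of pyruvate were 5. Pdk1, a kinase that switches off pyruvate dehydrogenase, had signals of 63.6 and 61.3 in unstimulated cells, 29.7 and 54.4 with IL-9, and 52.5 and 49.7 with CCL1. Pdk1 signals with Dex were 73.4 and 62.7, with Dex and IL-9 49.5 and 53.6, and with Dex and CCL1 64.2 and 39.3. The 4 IL-9 arrays were below the 4 without cytokine, and IL-9 1 was far below the other 3. The IL-9 average was -0.39 (SE 0.17, interval -0.77 to -0.012, adjusted p = 0.576). It was -0.22 without the 3 arrays named above, which include IL-9 1, and -0.16 for a second Pdk1 probe set.

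Ldhb, the lactate dehydrogenase subunit that favours lactate oxidation, had signals of 145 and 157 in unstimulated cells, 140 and 156 with IL-9, and 134 and 114 with CCL1. Under Dex, Ldhb read 202 and 170, with Dex and IL-9 134 and 124, and with Dex and CCL1 152 and 102. In this probe set, 1416183_a_at, the Dex arrays were the highest 2, and without Dex the IL-9 arrays overlapped with the unstimulated ones. Within Dex the difference was -0.48 with IL-9 (SE 0.19, interval -0.90 to -0.055, adjusted p = 0.838) and -0.52 with CCL1 (SE 0.19, interval -0.94 to -0.100, adjusted p = 0.738), both against the same 2 arrays. With the array Dex+CCL1 2 removed, the CCL1 difference within Dex was -0.26. The IL-9 by Dex interaction, -0.45 (SE 0.27, interval -1.04 to 0.15, adjusted p = 1.00), was the largest of the members and was 0.014 for the probe set 1434499_a_at. The averages of the 3 other Ldhb probe sets were -0.25 to -0.41 for IL-9 and -0.19 to -0.51 for CCL1. In these 3, both arrays of IL-9 alone were below both unstimulated ones, with 101 and 92.1 against 122 and 147 in 1434499_a_at. Dex 1 was below unstimulated 2 in 1434499_a_at (122 against 147) and in 1448237_x_at (128 against 146). In 1455235_x_at the Dex arrays were the highest.

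Ldha, the subunit that favours lactate formation, had averages of 0.24 (IL-9) and 0.078 (CCL1). Pdha1 had signals of 574 and 632 in unstimulated cells, 610 and 658 with IL-9, and 709 and 654 with CCL1. Pdha1 signals with Dex were 618 and 620, with Dex and IL-9 624 and 631, and with Dex and CCL1 680 and 642. The 4 CCL1 arrays were above the 4 without cytokine, by an average of 0.16 (SE 0.11, adjusted p = 0.932), or 0.070 without the 3 arrays named above. For a second Pdha1 probe set, 1449137_at, these arrays overlapped, with 535 in Dex+CCL1 2 and 682 in Dex 1. Pdk3, a further pyruvate dehydrogenase kinase, had averages of -0.020 and 0.022.

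The oxidative arm of the pentose phosphate pathway was read by 2 members. Pgls, the lactonase of its middle step, had signals of 166 and 195 in unstimulated cells, 237 and 197 with IL-9, and 190 and 238 with CCL1. Under Dex, Pgls read 163 and 254, with Dex and IL-9 224 and 294, and with Dex and CCL1 166 and 175. The IL-9 arrays overlapped with Dex 2, and the averages were 0.28 for IL-9 (0.16 without the 3 arrays named above) and -0.082 for CCL1. Pgd, the second NADPH-yielding dehydrogenase, had averages of 0.059 and -0.0024, and its signals are given with the replicate numbers.

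The non-oxidative arm had 5 members, of which Tktl1 (probe set 1420064_s_at) had the largest differences. Its signals were 83.7 and 62.5 in unstimulated cells, 22.0 and 27.8 with IL-9, and 39.3 and 19.1 with CCL1. Tktl1 signals with Dex were 81.3 and 43.8, with Dex and IL-9 27.1 and 22.2, and with Dex and CCL1 32.3 and 37.4. The 8 cytokine arrays were below the 4 without cytokine, and the 2 Dex arrays differed from each other by more than Dex 2 did from the highest cytokine array. Group means were 73.1 ± 15.0 in unstimulated cells, 24.9 ± 4.15 with IL-9, 62.6 ± 26.5 with Dex and 24.6 ± 3.49 with Dex and IL-9 (SD, n = 2 each). With CCL1 they were 29.2 ± 14.3, and with Dex and CCL1 34.8 ± 3.62 (SD, n = 2 each).

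The Tktl1 difference for IL-9 was -1.12 without Dex (SE 0.25, interval -1.66 to -0.58, adjusted p = 0.608), -0.91 within Dex (SE 0.25, adjusted p = 0.838) and -1.01 on average (SE 0.17, interval -1.40 to -0.63, adjusted p = 0.0767). For CCL1 it was -0.68, -0.59 and -0.63 on average (SE 0.19, interval -1.06 to -0.21, adjusted p = 0.625). Removing 1 array gave -0.24 (Dex 1) to -0.94 (Dex 2) for CCL1 within Dex, and -0.56 for IL-9 within Dex without Dex 1. Without the 3 arrays named above CCL1 gave -1.16 without Dex and -0.87 on average, and IL-9 gave -0.84 without Dex. The values without Dex there set 1 array against 1, CCL1 2 or IL-9 2 against unstimulated 2. The IL-9 average was lower in both replicate numbers, -1.28 over the arrays numbered 1 and -0.74 over those numbered 2. The call of the IL-9 average turned on the setting. It passed with 1 probe set per gene (adjusted p = 0.0408). It also passed with the array Dex 1 removed, at -0.84 (adjusted p = 0.0220), and with Dex 2 removed, at -1.19 (adjusted p = 0.00868). Removing any other array gave adjusted p up to 0.335. Without the 3 arrays named above it was -0.88 (adjusted p = 0.755). It was -1.38 with a pseudocount of 1 and -0.56 with one of 64, and neither passed. A second Tktl1 probe set, 1449567_at, gave -1.08 for IL-9 (SE 0.25, adjusted p = 0.202) and -0.62 for CCL1. For CCL1 without Dex it gave -0.28. It read 36.4 in CCL1 1 and 32.8 in unstimulated 2, so its CCL1 arrays were not all below those without cytokine.

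Transketolase itself, Tkt, had signals of 2544 and 2558 in unstimulated cells, 2616 and 2766 with IL-9, and 2261 and 2331 with CCL1. Under Dex, Tkt read 2601 and 2909, with Dex and IL-9 2267 and 2668, and with Dex and CCL1 2217 and 2531. The 4 CCL1 arrays were below the 4 without cytokine, by an average of -0.19 (SE 0.12, adjusted p = 0.932), and a second Tkt probe set gave -0.0093. Rpia, ribose phosphate isomerase, had signals of 102 and 93.6 in unstimulated cells, 107 and 106 with IL-9, and 126 and 119 with CCL1. Rpia signals with Dex were 82.8 and 133, with Dex and IL-9 90.8 and 141, and with Dex and CCL1 112 and 84.8. The Dex groups overlapped with all others. Rpe, the epimerase (signals of 320 to 416), had averages of -0.027 and 0.085, and Taldo1, transaldolase (432 to 614), of 0.013 and 0.071.

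Counted over all roles, 2 members (Hk1, Slc16a1) had all 4 IL-9 arrays above the 4 without cytokine, as did 2.5% of all probe sets, and 2 (Pdk1, Tktl1) had them below, as did 3.78%. For CCL1, 1 member (Pdha1) was above, against 1.98%, and 2 (Tkt, Tktl1) below, against 3.01%. Tktl1 was the 1 member with all 8 cytokine arrays below the 4 without, against 0.936% of all probe sets, and 0 were above, against 0.494%. These counts use 1 probe set per gene. Second probe sets of Hk1 and Pdk1 overlapped for IL-9, as did those of Tktl1, Pdha1 and Tkt for CCL1. The second Tktl1 probe set was below in all 4 IL-9 arrays. Between the cytokines, Hk1 and Slc16a1 were higher in all 4 IL-9 arrays than in all 4 CCL1 arrays (2.51%) and Aldoc was lower (2.56%). In the test of IL-9 against CCL1, averaged over Dex conditions, 0 members were called by limma (0.236% of all probe sets) and 0 had an unadjusted p under 0.05 (4.62%). Its largest member difference was that of Tktl1, -0.38 (SE 0.19, interval -0.81 to 0.044, adjusted p = 0.999), and it was -0.0020 without the 3 arrays named above. In the IL-9 by Dex and CCL1 by Dex interactions 0 members were called (0% of all probe sets in each) and 0 had an unadjusted p under 0.05 (1.58% and 2.87%).

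With all 11 arrays, Dex averaged over cytokine conditions gave the smallest differences of the members, between -0.12 (Bpgm) and 0.14 (Pfkl). Without the 3 arrays named above the member differences were wider, between -0.37 (Slc2a3) and 0.32 (Ldha). In that setting all arrays without Dex were numbered 2 while the Dex arrays had both numbers, so Dex and number are mixed. Within number 2 in that setting Slc2a3 was at -0.16 and Ldha at 0.37. With all 11 arrays limma called 0 members (0% of all probe sets), and 0 had an unadjusted p under 0.05 (1.53%). In that fit the intervals of all 28 lay within 0.5 log2 of 0, and those of 99.7% of all probe sets within 1. Pfkl, the liver-type phosphofructokinase, had signals of 300 and 378 in unstimulated cells, 327 and 332 with IL-9, and 279 and 436 with CCL1. Under Dex, Pfkl read 286 and 449, with Dex and IL-9 307 and 360, and with Dex and CCL1 340 and 366. The Dex arrays overlapped with those without Dex, and the difference was 0.14 (SE 0.13, adjusted p = 1.00), or -0.12 without the 3 arrays named above. Within number 2 in that setting the Pfkl difference was 0.037. From the 11 arrays, removing 1 gave 0.039 (Dex 2) to 0.25 (Dex 1) for Dex averaged. In no member were all 6 Dex arrays above or below the 6 without Dex, against 0.0663% and 0.0221% of all probe sets. Because of the receptor target levels given above for the arrays labelled without Dex and numbered 1, Dex was also tested within each number.

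Among the arrays numbered 1, 0 members were called by limma for Dex (0% of all probe sets), with 0 at an unadjusted p under 0.05 (2.5%). The largest difference was that of Pdk1, 0.30 (SE 0.17, interval -0.075 to 0.68, adjusted p = 1.00), and it was 0.11 with the array IL-9 1 removed. Among the arrays numbered 2, where 8 of 12 receptor targets were called higher with Dex, 0 members were called (0.597% of all probe sets), and 3 had an unadjusted p under 0.05 (10.5%). Signals of Ldha in the arrays numbered 2 were 2433, 3246 and 3204 without Dex (no cytokine, IL-9, CCL1) and 3579, 3728 and 4081 with Dex. In the arrays numbered 1 they were 3587, 4699 and 3215 without Dex and 3569, 3834 and 3285 with Dex. Within number 2 the Dex arrays were above the others, and unstimulated 2 was lowest of all 12, as it was for the Gapdh control and the brightest probe sets, whose part in this was not tested. The Ldha difference was 0.47 (SE 0.16, interval 0.12 to 0.82, adjusted p = 0.328), and it was 0.37 without the 3 arrays named above and 0.25 after quantile normalization.

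Hk2 within number 2 was likewise above its no-Dex arrays in all 3 Dex arrays, and its fitted difference was 0.40 (SE 0.13, interval 0.11 to 0.68, adjusted p = 0.313). For Ldha and Hk2 the array CCL1 2 is among the signals compared but did not enter the test. The share of all probe sets separated in this way was not computed, so no weight can be put on the separation. Bpgm had a difference of -0.39 (SE 0.17, adjusted p = 0.448). It was 0.22 for another Bpgm probe set and -0.23 with unstimulated 2 removed. In the test of whether the Dex effect differed between the numbers, 0 members were called by limma (0.206% of all probe sets) and 2 had an unadjusted p under 0.05 (10.1%): Ldha with 0.56 (SE 0.21, adjusted p = 0.442) and Hk2 with 0.50 (SE 0.17, adjusted p = 0.397). After quantile normalization the Ldha value was 0.21. The median member difference in that test was 0.082, against -0.026 over all probe sets.

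The replicate numbers themselves separated 1 member. Pgd (probe set 1436771_x_at), which reduces NADP in the third step of the oxidative arm, had signals of 462 (unstimulated), 558 (IL-9), 606 (CCL1), 502 (Dex), 515 (Dex and IL-9) and 491 (Dex and CCL1) in the arrays numbered 1. In the arrays numbered 2 they were 675, 667, 663, 760, 734 and 655. All 6 arrays numbered 2 were above all 6 numbered 1, as in 1.13% of all probe sets, and 0 members were below (0.663%). A second Pgd probe set, 1423706_a_at, also separated the numbers, with 210 to 299 against 310 to 372. The probe sets 1437380_x_at and 1438627_x_at did not. The former read 396 in Dex+IL-9 2 and 508 in IL-9 1, and the latter was highest in CCL1 1, at 399. The difference of number 2 from number 1 was 0.49 with Dex (SE 0.12, interval 0.24 to 0.75, adjusted p = 0.110) and 0.31 without (SE 0.13, interval 0.017 to 0.60, adjusted p = 0.498), the latter 0.16 with unstimulated 1 removed. For 3 further probe sets it was 0.22 to 0.41 with Dex.

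By limma, 0 members were called between the numbers with Dex (0.0221% of all probe sets) or without (0.796%). At an unadjusted p under 0.05 there were 6 members with Dex, all higher in number 2 (Pgd, Hk2, Pkm, Slc2a3, Pfkl, Pgls), against 15.8% of all probe sets, and 3 without (Ldha, Slc2a3, Pgd), against 9.17%. With Dex the median member difference was 0.088, against -0.00081 over all probe sets, with 20 of 28 above 0. Slc2a3 differed by 0.42 with Dex (SE 0.16, adjusted p = 0.236) and 0.47 without (SE 0.18, adjusted p = 0.411), or 0.63 with Dex+CCL1 2 removed and 0.30 with unstimulated 2 removed. Its 3 other probe sets, of lower signal, gave -0.077 to 0.32 and 0.026 to 0.12. Ldha differed by -0.47 without Dex (SE 0.16, adjusted p = 0.325) and 0.092 with it.

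**Figure D5:**
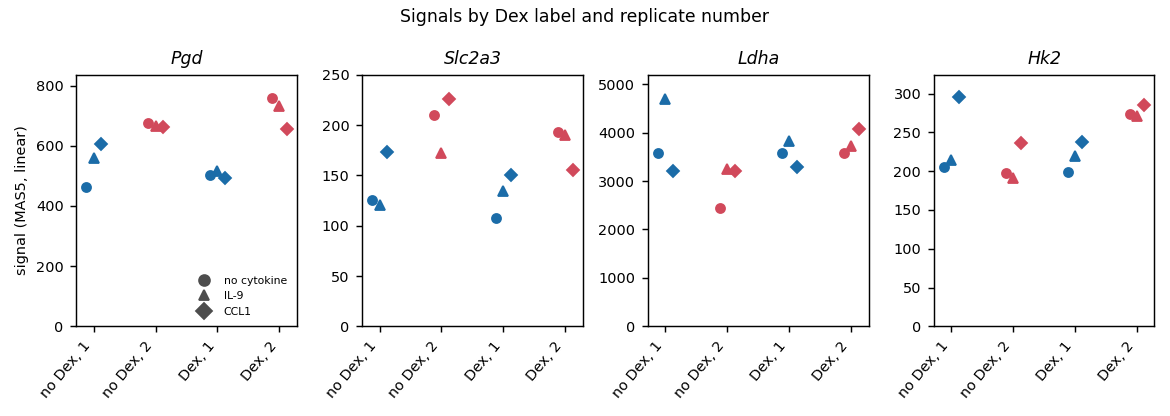
MAS5 signals (linear axis from 0) of Pgd, Slc2a3, Ldha and Hk2 by Dex label and replicate number; circles are arrays without cytokine, triangles IL-9 and diamonds CCL1. Every Pgd array numbered 2 lies above every array numbered 1, and Ldha is lowest in unstimulated 2 at 2433.

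Genes next to these pathways were read through further lists. Of other sugar metabolism genes 20 of 45 were tested, and of pyruvate entry and TCA cycle genes 28 of 35, and 0 of either were called by limma in any of the 15 comparisons. At an unadjusted p under 0.05 there were 1 and 3 of them for IL-9 on average (8.57% of all probe sets). For CCL1 on average there were 0 and 1 (5.6%). The most in any comparison was 5. This was for the former list between the numbers with Dex (15.8%) and for the latter between the numbers without Dex (9.17%). The smallest p of these for IL-9 on average was that of Aco1, the cytosolic aconitase and iron regulatory protein (-0.63, SE 0.18, adjusted p = 0.345). It had -0.54 for CCL1 (SE 0.20, adjusted p = 0.832). Of regulators of sugar metabolism 14 of 22 were tested, with Nfe2l2, which encodes NRF2, at 0.50 for IL-9 (SE 0.13, adjusted p = 0.282) and Hif1a at 0.45 (SE 0.17, adjusted p = 0.499). Hif1a read 315 in Dex 2 and 488 to 838 in all other arrays. Its IL-9 arrays overlapped with those without cytokine, with 584 in Dex+IL-9 1 and 619 in unstimulated 2.

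Calls in these lists came only in comparisons that involve the arrays labelled without Dex. Between their numbers, Txnip, an inhibitor of glucose uptake and a known glucocorticoid target, fell by 0.87 from number 1 to number 2 (SE 0.15, adjusted p = 0.0216). Its signals there were 519, 376 and 493 in number 1 (unstimulated, IL-9, CCL1) and 228, 253 and 248 in number 2, and 330 to 539 in the Dex arrays. Ddit4, an mTOR inhibitor induced by hypoxia and by glucocorticoids and 1 of 13 tested HIF-1 targets, fell by 0.80 (SE 0.16, adjusted p = 0.0355), and within number 2 it rose by 0.88 with Dex (SE 0.16, adjusted p = 0.0261). Txnip and Ddit4 are both among the glucocorticoid receptor targets whose levels are given above, so their calls are not separate from that pattern. Gclm, a glutathione synthesis subunit and 1 of 11 tested NADPH and NRF2 genes, rose by 0.78 from number 1 to number 2 (SE 0.12, adjusted p = 0.0101). Its signals in the Dex arrays were also higher in number 2, 223, 337 and 238 against 165, 211 and 172, a difference of 0.49 that did not pass (SE 0.11, adjusted p = 0.105). No other tested gene of these 3 lists was called in any of the 15 comparisons.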

How the data were processed

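The 12 Affymetrix arrays, in 6 groups of 2 per the labels, read total RNA from BW5147 cells. Per the submitters' processing notes, the deposited intensity values are MAS5 signals on a linear scale, in a table of 11 arrays and another of 1 array. The software version was not given in the sources used here. With 2% trimmed at each end, every array had a mean signal of 100.04 or 100.05, and such scaling hides any shift common to most genes.

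After removal of 64 control probe sets 22626 remained. Signals were transformed as log2(signal + 16), and the 13575 probe sets above the 40th percentile of the mean (a signal of 6.32) were kept. Of the 22626, 20380 had 1 gene symbol, 691 several and 1555 none, and 20351 matched RefSeq genes of GRCm38.p6, which changed 0 symbols. Comparisons were fitted with limma 3.58.1 (R 4.3.3) over 11 arrays, with empirical Bayes moderation that follows an intensity trend, and p-values were adjusted by Benjamini-Hochberg over the kept probe sets. A first model had 1 mean per group (5 residual and 6.47 prior degrees of freedom), which shares the spread because 2 arrays estimate it poorly. A second had the cytokine as an additive term beside 4 means for Dex by replicate number (5 residual and 6.96 prior). The scripts were tested on simulated data. Values in every array are given for the member with the largest difference in each comparison, for the 2 members of each role whose group means differ most, and for members whose groups did not overlap. Genes of other lists are named if called, and otherwise by the smallest p. The members and lists were chosen with earlier results of these data known. No value column lacked a sample (0 in all).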

Additional observations from a re-analysis of the deposited data

How the results depend on the processing

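The count of members called was recomputed 317 times: leaving out each array in turn, with the replicate block, with 1 probe set per gene, with CCL1 2 included, with CCL1 2 included and the 3 arrays labelled without Dex and numbered 1 left out, after median centring or quantile normalization, without the intensity trend, with pseudocounts of 1 and 64, and with the filter dropped or set at the 60th percentile. It stayed at 0 in 314. It was 1, Tktl1 for IL-9 averaged over Dex conditions, with 1 probe set per gene (7506 tests in place of 13575), without Dex replicate 1 and without Dex replicate 2, so that leaving out 1 array gave 0 to 1. Of 804 differences of single members, 796 kept their direction and their side of the threshold. Those that turned were Pfkl for Dex averaged over cytokine conditions (-0.12 without the 3 arrays labelled without Dex and numbered 1), Ldhb in the IL-9 by Dex interaction (0.014 for 1434499_a_at), Bpgm for Dex in number 2 (0.22 for 1448119_at) and Slc2a3 between the Dex arrays of the 2 numbers (-0.0011 for 1421924_at, -0.077 for 1427770_a_at), and the cause was not tested. The setting without those 3 arrays gives no value for Dex in number 1, for the numbers without Dex or for the difference between numbers. For Dex averaged it sets Dex arrays of both numbers against arrays numbered 2 only. Pfkl within number 2 was 0.037 in that setting. Median centring moved the median of all probe sets by 0.11 for CCL1 versus unstimulated and by 0.14 for its interaction with Dex, and by less than 0.1 elsewhere.

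Replicate numbers were checked as pairs: the difference between the numbers correlated between groups at -0.0051 to 0.35, above 0.1 in 10 of 15 pairs. Most groups thus shared a weak difference between the numbers. Whether the numbers mark paired arrays was not tested, and the main cytokine tests did not pair them. With the replicate block 0 members were called for each cytokine average (Tktl1 for IL-9 at -1.01, adjusted p = 0.0501), and the calls over all probe sets went from 3 to 6 for IL-9 within Dex and from 13 to 18 on average.

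The number of all probe sets called rested on single arrays. Leaving out 1 array gave 2 to 668 for IL-9 within Dex (3 with all), 5 to 358 for IL-9 averaged (13), 0 to 528 for CCL1 within Dex (1) and 0 to 271 for the IL-9 by Dex interaction (0), the highest each without Dex replicate 1. It gave 1 to 66 for CCL1 averaged (1), 0 to 101 for the CCL1 by Dex interaction (0), 14 to 52 for IL-9 versus CCL1 (32), 29 to 117 for Dex in number 2 (81), 46 to 216 for the numbers without Dex (108), 0 to 528 for the numbers with Dex (3) and 15 to 44 for the difference between numbers (28). Other settings gave 2 to 6 for IL-9 within Dex, 6 to 18 for IL-9 averaged, 1 to 3 for CCL1 averaged, 13 to 47 for IL-9 versus CCL1, 44 to 110 for Dex in number 2, 65 to 199 for the numbers without Dex and 0 to 60 for Dex averaged, the 60 without the 3 arrays. With 2 arrays a group, differences of the size of most member intervals could not be told from 0.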
